A study of Vitis vinifera and Vitis vinifera
Schisandra chinensis with 13 samples.

Results

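*MT3* is the grapevine gene (MSTRG.11371) that the deposited RNA-seq table describes as a putative metallothionein-like protein, and it is described here as 1 gene of the 25819 in that table. It was chosen for its FPKM (fragments mapped to a gene, divided by its transcript length and by the mapped fragments of the library), its share of each library, its rank and its values in Vv against Vs plants. These quantities are therefore given as a description with no test. The table annotates *MT3* with copper ion binding and zinc ion binding. It lists 2 transcripts for the gene, of which VIT_19s0014g02740.t01 carries a *V. vinifera* locus tag of chromosome 19.

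The study compared the scions of *V. vinifera* 'Hongruibao' on their own roots (Vv, also called self-grafted in the series title) with those of graft hybrids of the same cultivar on wild *Schisandra chinensis* rootstocks (Vs), a plant of another family. Both kinds of plant had stood in the same area for 25 years, none was treated, and material was taken at harvest. Each library was made from a pool of leaf, phloem and whole berry RNA, and each group had 3 plants, 3 RNA-seq libraries and 3 small RNA libraries, while 1 degradome library was made from a mixture of all. A value is thus a mean over organs, fewer cells of a type cannot be told apart from less RNA per cell, and no level of *MT3* can be assigned to leaf, phloem or berry.

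Metallothioneins are small proteins rich in cysteine, whose thiol groups bind copper, zinc and cadmium ions. Plants use them to buffer copper and zinc inside cells, and their cysteines can also react with reactive oxygen species. The plant type 3 proteins are known for high transcript levels in leaves and in ripening fleshy fruits.

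*MT3* was measured at 10596 FPKM in Vv1, 15714 in Vv2 and 4168 in Vv3. In the Vs libraries it was at 24670 FPKM in Vs1, 28560 in Vs2 and 33678 in Vs3. Every Vs library was above every Vv library, and Vv3 was the lowest of the 6. The lowest Vs value was 1.57 times the highest Vv value.

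**Figure D1:**
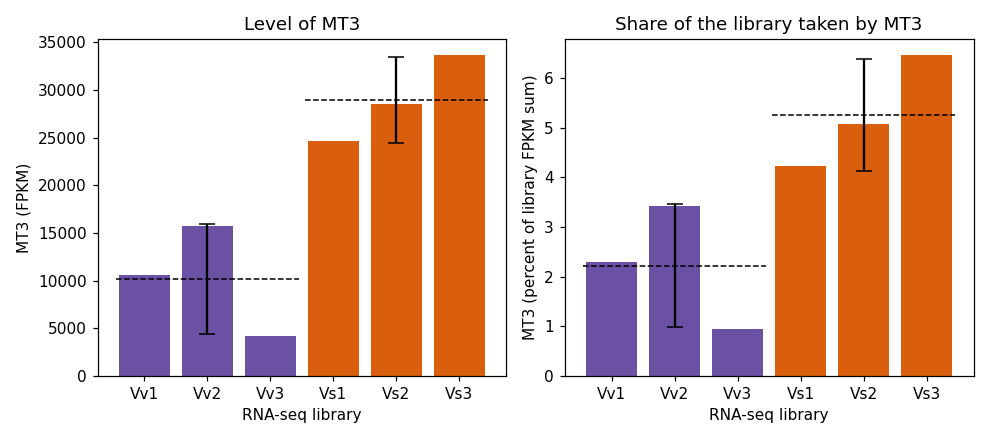
MT3 in the 6 RNA-seq libraries, as FPKM (left) and as percent of the FPKM sum of the library (right), with Vv bars in purple and Vs bars in orange. Dashed lines are group means and error bars are SD over 3 plants; the Vs bars reach 24670 to 33678 FPKM, above the Vv bars at 4168 to 15714.

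The Vv mean was 10159 ± 5785 FPKM and the Vs mean 28969 ± 4518 FPKM (both SD, n = 3), which is 2.85 times as high. The Vv plants differed from each other more than the Vs hybrids did. The highest Vv value was 3.77 times the lowest, against 1.37 times among the Vs libraries, and the coefficients of variation were 57.0% and 15.6%. Much of this Vv spread came from Vv3, at 4168 FPKM, with Vv1 at 10596 and Vv2 at 15714. On the log2(FPKM + 1) scale the difference between the groups was 1.70 (SE 0.50 from limma, fitted over all genes). Without Vv3, the Vv mean of *MT3* was 13150 FPKM and the Vs mean was 2.20 times as high, with a log2 fold change of 1.16. Groups without overlap and with Vs above Vv were found in 5.55% of the 15447 genes tested, and since *MT3* was chosen on these columns, nothing is read from its place among them. Over all tested genes the median log2 fold change was -0.25.

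As a share of its library, *MT3* took 2.30% of the FPKM sum in Vv1, 3.42% in Vv2 and 0.948% in Vv3. Its share was 4.24% in Vs1, 5.08% in Vs2 and 6.47% in Vs3. The groups did not overlap on this scale either, although the gap between them was narrower than in FPKM, with the lowest Vs share at 1.24 times the highest Vv share. The mean share was 2.22% ± 1.24 in Vv and 5.26% ± 1.13 in Vs (both SD, n = 3), a difference of 3.04 percentage points.

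*MT3* was the 4th most abundant entry of the table in Vv1, the 2nd in Vv2 and the 11th in Vv3. In the Vs libraries it was 4th, 3rd and 2nd in Vs1, Vs2 and Vs3. Its rank therefore overlapped between the groups although its level did not. Among genes with a *V. vinifera* reference transcript, ribosomal RNA entries left out, *MT3* stood 1st in 5 of the 6 libraries and 7th in Vv3.

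The reference gene next to it was not the same in every library. In Vv1 *MT3* was 1.41 times the level of VIT_06s0004g05180, which the table annotates with Rubisco activator activity, and in Vv2 it was 1.30 times that of VIT_17s0000g03690, the small chain of Rubisco, the enzyme that fixes carbon dioxide in leaves. In Vs3 it was 3.71 times that of VIT_06s0004g05180. In Vs1 and Vs2 the next reference gene was VIT_13s0101g00220, whose description names no function, and *MT3* was 1.03 and 1.497 times its level. In Vv3 *MT3* was at 0.332 times the level of the leading reference gene, VIT_19s0090g01370.

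By mean FPKM over the 6 libraries *MT3*, at 19564, was the 3rd of all entries. Above it were MSTRG.6778, which has no name or annotation in the table (30383 ± 7119 FPKM in Vv, 68172 ± 22864 in Vs, SD, n = 3), and a small-subunit ribosomal RNA entry, MSTRG.21877 (15345 ± 5572 and 41534 ± 8244). Below it came the unnamed MSTRG.9361 (9053 ± 1829 and 19002 ± 6546), a large-subunit ribosomal RNA entry, MSTRG.22391 (4716 ± 1813 and 14694 ± 2255), and the unnamed MSTRG.22008 (5482 ± 1330 and 13609 ± 3546). These 5 entries did not overlap between the groups and were higher in every Vs library, as *MT3* was, against 5.55% of all tested genes. The next below were VIT_06s0004g05180 (5511 ± 4230 and 8869 ± 198) and VIT_13s0101g00220, which was listed at 0 in the 3 Vv libraries and at 23853, 19079 and 0.0013 FPKM in Vs1, Vs2 and Vs3. Both were also higher in every Vs library, the second by only 0.0013 FPKM in Vs3. None of these 7 passed an adjusted p of 0.05 from limma (0.11 to 0.44), a threshold that 0.557% of the tested genes passed.

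The FPKM sums of the libraries were not equal, at 439752 to 461260 in Vv and 520529 to 582510 in Vs. The mean sum was 101705 FPKM higher in Vs, and *MT3* alone differed by 18810 FPKM, or 18.5% of that amount, behind only those of MSTRG.6778 (37.2%) and the small-subunit ribosomal RNA entry (25.7%). The other genes with a reference transcript had a summed difference of -23260 FPKM. Relative to the FPKM sum of the genes with a reference transcript, *MT3* took 3.08%, 4.36% and 1.18% in Vv1, Vv2 and Vv3. In Vs1, Vs2 and Vs3 it took 7.48%, 8.03% and 9.35% of that sum. These sums differed little between the groups, at 344502 to 360177 FPKM in Vv and 329728 to 360070 in Vs.

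Of the 36 genes whose mean reached 1000 FPKM, 26 had a log2 fold change above 0, against 32.5% of all tested genes, and their median was 1.17, against -0.25 over all tested genes. In 19 of the 36, or 52.8%, every Vs library was above every Vv library, against 5.55% of all tested genes. *MT3*, itself one of the 36, had the 7th largest log2 fold change, with 6 genes above it. The 19 include ribosomal RNA and unnamed entries, and VIT_13s0101g00220 at 0.0013 FPKM in Vs3. Some of the 36 reached a mean of 1000 FPKM only through the group where they were high. Examples are *LHCB5* (means of 595 in Vv and 1557 in Vs) and VIT_08s0056g01600 (2932 and 403). These shares thus rest in part on how the 36 were picked. Of 521 genes whose mean reached 100 FPKM, 45 (8.64%) had a larger log2 fold change than *MT3*, and the median was -0.22. A log2 fold change above 0 was found in 218 of the 521, against 26 of the 36. *MT3* is in both sets and was chosen on these columns, so nothing is read from its place in them.

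**Figure D2:**
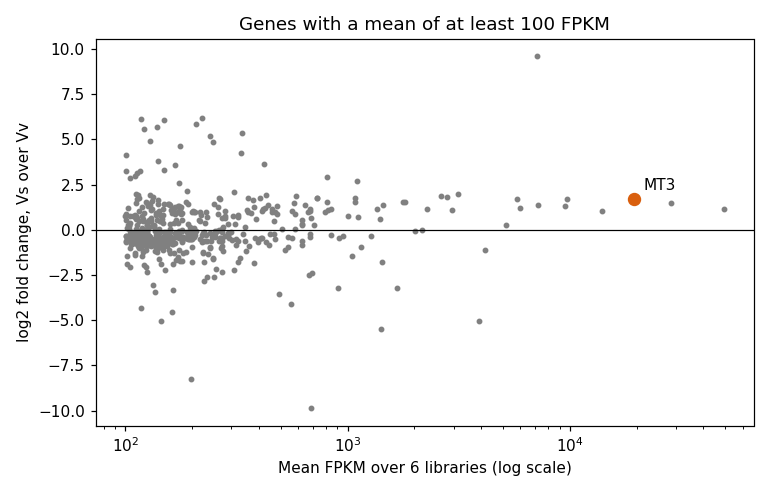
Each point is 1 of the 521 genes whose mean reached 100 FPKM, by its mean over the 6 libraries (log axis) and its log2 fold change, Vs over Vv, from log2(FPKM + 1). MT3 (orange) lies at a mean of 19564 FPKM and a log2 fold change of 1.70, with 45 points above it.

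Library Vv3, in which *MT3* was lowest, also stood apart in its leaf genes. Summed over the 16 light-harvesting antenna genes of the table, which bind chlorophyll in leaf chloroplasts, the level was 6483 FPKM in Vv1, 5756 in Vv2 and 909 in Vv3. It was 8002, 6613 and 10895 FPKM in Vs1, Vs2 and Vs3. These sums did not overlap between the groups, as for *MT3*, but the margin was small, with the lowest Vs sum at 1.02 times the highest Vv sum. Of the 15 antenna genes tested, 14 had a log2 fold change above 0, with a median of 1.36, and 12 did without Vv3, with a median of 0.56. One of the 15, VIT_10s0003g02900, was at 658, 434 and 94.9 FPKM in Vv1, Vv2 and Vv3 and listed at 0 in Vs1, Vs2 and Vs3. With an adjusted p of 0.011 in limma, it was the 1 antenna gene that passed the test, where 0.557% of all tested genes did. It did not pass in limma without Vv2 (0.067), without Vs2 (0.064) or with a pseudocount of 10 (0.070).

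*MT3* per antenna FPKM was 1.63 in Vv1, 2.73 in Vv2 and 4.59 in Vv3. In Vs1, Vs2 and Vs3 the ratio was 3.08, 4.32 and 3.09. On this ratio the groups overlapped, and Vv3 had the highest value of all 6 libraries. Scaled to an equal antenna sum in every library, a setting chosen after the data were seen, the log2 fold change of *MT3* was 0.34 (SE 0.90). Against the Rubisco small chain gene, which was at 4991, 12089 and 814 FPKM in Vv1, Vv2 and Vv3 and at 4877, 4012 and 4350 in Vs1, Vs2 and Vs3, *MT3* gave ratios of 2.12, 1.30 and 5.12 in Vv. In Vs1, Vs2 and Vs3 these ratios were 5.06, 7.12 and 7.74. The highest Vv ratio, of Vv3, was just above the lowest Vs ratio.

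The other organ markers were sparse. The sum of 4 berry genes was 32.4, 611 and 1246 FPKM in Vv1, Vv2 and Vv3 and 43.6, 291 and 68.0 in Vs1, Vs2 and Vs3, so Vv3 was highest in berry genes while it was lowest in leaf genes and in *MT3*. Its leading members were MSTRG.3216 (528 ± 535 FPKM in Vv and 90.5 ± 125 in Vs, SD, n = 3) and a ripening-induced protein, VIT_05s0049g00760 (76.3 ± 69.7 and 23.9 ± 20.7). MSTRG.3216, at 1079 FPKM in Vv3, joins a ripening-related protein and a subunit of a NEDD8-activating enzyme in 1 entry. Which of these its FPKM came from was not tested. VIT_05s0049g00760 was listed at 0 in Vv1 and Vs1. The sum of 6 phloem genes was 18.7 to 23.7 FPKM in Vv and 15.9 to 32.4 in Vs. It was led by *AtPP2-A14* (11.6 ± 2.24 and 5.82 ± 1.52) and *AtPP2-A15* (3.77 ± 1.501 and 13.6 ± 10.7). Both are in the list by gene symbol alone, and their means differed in opposite directions. The part of the organ mixture in the level of *MT3* was not tested.

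Ribosomal RNA entries moved with the group too. They held 5.63%, 4.14% and 3.47% of the FPKM sum in Vv1, Vv2 and Vv3 and 10.6%, 11.1% and 8.61% in Vs1, Vs2 and Vs3. *MT3* per ribosomal RNA FPKM was 0.408, 0.827 and 0.273 in Vv1, Vv2 and Vv3 and 0.401, 0.458 and 0.752 in Vs1, Vs2 and Vs3. The groups overlapped on this ratio. With the ribosomal RNA entries left out of the sum, *MT3* took 2.43%, 3.57% and 0.982% in Vv and 4.74%, 5.71% and 7.08% in Vs, and on this share they did not overlap. The part of ribosomal RNA in the FPKM of *MT3* was not tested. The next ribosomal RNA entry, MSTRG.17844, was at 1.38 ± 0.9003 FPKM in Vv and 4.29 ± 1.83 in Vs (SD, n = 3).

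**Figure D3:**
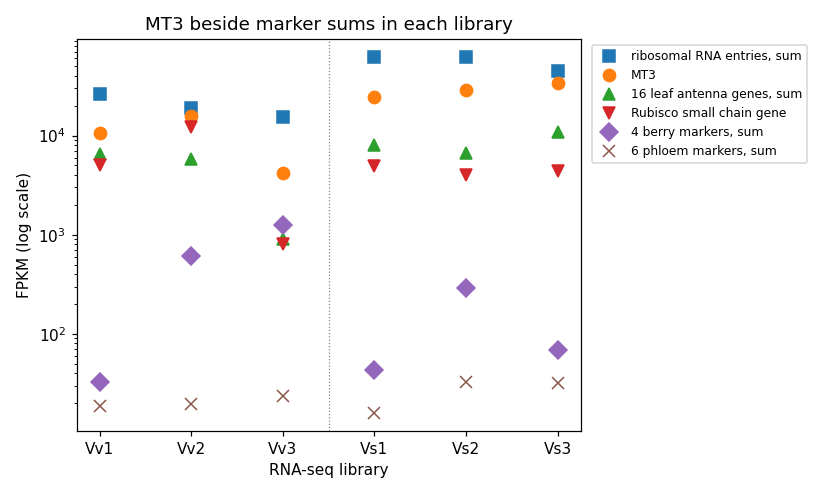
FPKM on a log axis in each RNA-seq library (Vv left of the dotted line, Vs right) of MT3, the Rubisco small chain gene, and the sums of ribosomal RNA entries and of leaf, berry and phloem markers. In Vv3, MT3 (4168), the antenna sum (909) and the Rubisco gene (814) are each at their lowest while the berry sum (1246) is at its highest.

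The size of the difference in *MT3* depended on how the libraries were scaled. Median-ratio scaling, which sets the median gene as equal and moved the median log2 fold change of all genes to 0.01, gave *MT3* a log2 fold change of 2.01 (SE 0.47). An equal FPKM sum per library, which moved that median to -0.49, gave 1.41 (SE 0.49). Quantile normalization, which gives every library the same set of values, gave 0.71 (SE 0.68). Its sign was positive under each of the 17 alternatives run, whose values ran from 0.34 to 2.11. For many of these the sign could not have turned. At this level pseudocounts and filters on low values hardly move *MT3*, and a replicate block in a balanced design leaves its value as it is. Groups chosen on these columns and without overlap also stay apart when 1 library is left out.

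**Figure D4:**
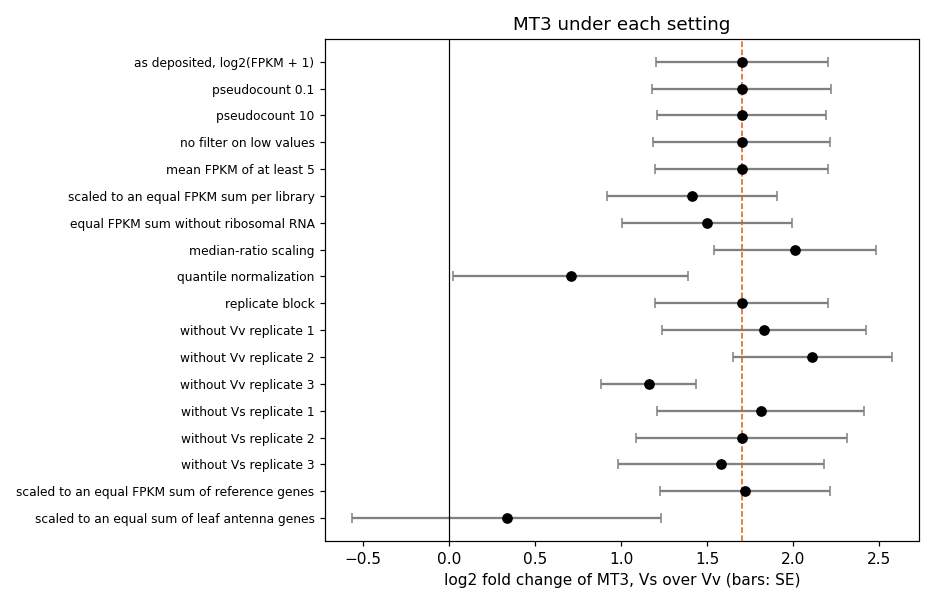
The log2 fold change of MT3, Vs over Vv, with its SE from limma, as deposited and under 17 other settings, with a dashed line at the value as deposited (1.70) and a solid line at 0. All points lie right of 0, from 0.34 with equal antenna sums to 2.11 without Vv replicate 2.

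The genes whose profile over the 6 libraries was most like that of *MT3* were sought among 5837 other genes whose mean reached 10 FPKM, by the root mean square difference of log2(FPKM + 1), each gene centred on its own mean. The nearest was VIT_13s0139g00360, with a difference of 0.094 and a Pearson r of 0.996 over the 6 libraries. It was at 10.9, 14.6 and 3.47 FPKM in Vv1, Vv2 and Vv3 and at 26.2, 29.6 and 30.5 in Vs1, Vs2 and Vs3, so it followed *MT3* in its drop in Vv3 and in its order of libraries at a far lower level. The next were VIT_04s0043g00380 (0.126, r = 0.994), VIT_18s0001g08690 (0.146, r = 0.990), a carboxypeptidase gene, VIT_04s0023g00700 (0.150, r = 0.992), VIT_13s0067g03210 (0.186, r = 0.985) and VIT_14s0060g02130 (0.196, r = 0.984). Apart from that of the carboxypeptidase, their descriptions in the table name no function, and other annotation of them was not looked up. All 6 had their lowest value in Vv3 and no overlap between the groups, which is what likeness to *MT3* selects. Some reached a mean of 10 FPKM only through the Vs libraries. These were VIT_18s0001g08690 (means of 5.25 in Vv and 14.9 in Vs), VIT_04s0043g00380 (7.89 and 22.4), VIT_04s0023g00700 (9.51 and 26.3) and VIT_13s0139g00360 (9.65 and 28.8). Of the 5837 genes, 231 had an r above 0.9 with *MT3*. Of 15 antenna genes among them, 9 did, and the median r was 0.91 for the antenna genes and -0.38 for all. The 6 points share their libraries and their scaling, and the profile is the one that *MT3* was chosen on, so no p is given.

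**Figure D5:**
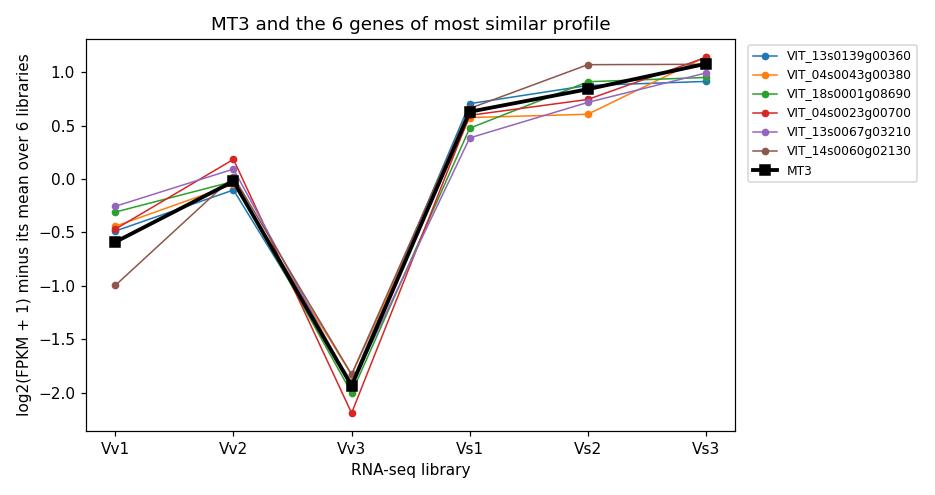
Profiles of log2(FPKM + 1), each minus its own mean over the 6 RNA-seq libraries, for MT3 (black squares) and the 6 genes of smallest root mean square difference from it (0.094 to 0.196). The lines join the values of 1 gene and imply no order of libraries; all 7 profiles are lowest in Vv3 and above 0 in Vs1, Vs2 and Vs3.

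*MT3* made up nearly all the FPKM of the 2 genes that the table names as metallothioneins. A metallothionein that the table does not name as such would be missed here. The list of metallothioneins by symbol or description held 1 other gene, VIT_08s0007g00330 (MSTRG.19316), at 30.3, 16.2 and 15.03 FPKM in Vv1, Vv2 and Vv3 and at 26.8, 27.0 and 16.5 in Vs1, Vs2 and Vs3. *MT3* was at 277 to 971 times its FPKM in the Vv libraries and at 920 to 2041 times in the Vs libraries. It held 99.64 to 99.95% of the FPKM of both genes. VIT_08s0007g00330 overlapped between the groups, and its log2 difference of 0.22 (SE 0.35) did not pass in limma (adjusted p = 0.73) and was -0.06 with equal FPKM sums. Whether the change of *MT3* differed from that of this gene was not tested.

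By locus tag, the reference genes next to *MT3* on one side are copper genes as well. MSTRG.11370 (VIT_19s0014g02720), annotated with copper chaperone activity and copper ion transport, was at 16.4, 15.9 and 14.2 FPKM in Vv1, Vv2 and Vv3 and at 3.84, 5.55 and 10.1 in Vs1, Vs2 and Vs3. This neighbour was lower in every Vs library, where *MT3* was higher, and non-overlap in this direction was found in 26.2% of all tested genes. On the log2 scale it differed by -1.22 (SE 0.33), with an adjusted p of 0.17 in limma. MSTRG.11367, with the locus tags VIT_19s0014g02710 and VIT_19s0014g02730 and the same copper terms, was at 669, 1625 and 410 FPKM in Vv1, Vv2 and Vv3 and at 1974, 843 and 1173 in Vs1, Vs2 and Vs3. It was the nearest in level, and the mean of *MT3* was 17.5 times its mean. On the other side the next gene was *NSF* (VIT_19s0014g02750), at 18.9, 26.1 and 36.4 FPKM in Vv1, Vv2 and Vv3 and at 10.2, 18.2 and 13.6 in Vs1, Vs2 and Vs3, again lower in every Vs library (adjusted p = 0.22 from limma). Beyond it VIT_19s0014g02760 was at 12.3 to 18.4 FPKM in Vv and 9.20 to 13.2 in Vs. None of these neighbours was higher in every Vs library, and whether reads of overlapping or related transcripts were shared between them and *MT3* was not tested.

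The background to *MT3* was taken from genes annotated with the handling of copper, zinc and cadmium, or iron, or with a response to these metals. With the second metallothionein, 91 such genes were tested. By limma 0 of the 91 passed an adjusted p of 0.05, where 0.557% of all tested genes did, and 0 is near that share. Of the 91, 19 had an unadjusted p under 0.05 in limma, against 20.4% of all tested genes. The log2 fold changes of 30 of the 91 were positive, against 32.5% of all tested genes, and their median was -0.24, where that of all tested genes was -0.25. In 5 of them (5.49%) every Vs library was above every Vv library, the direction of *MT3*, against 5.55% of all tested genes, and in 25 (27.5%) every one was below, against 26.2% of all tested genes.

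Of 15 copper genes tested besides *MT3*, 6 were above 0 and 9 below, with a median of -0.16, and 9 were above 0 after median-ratio scaling. The copper chaperone gene *ATX1*, which hands copper on inside the cytosol, had the largest log2 fold change of those whose mean reached 10 FPKM, at 253, 78.9 and 233 FPKM in Vv1, Vv2 and Vv3 and at 328, 636 and 886 in Vs1, Vs2 and Vs3. Its groups did not overlap, and it differed by 1.76 on the log2 scale (SE 0.57), with an adjusted p of 0.20 in limma. Unlike *MT3*, it was not lowest in Vv3. *PAA2*, a copper pump of the chloroplast thylakoid in *Arabidopsis thaliana*, was at 20.7 ± 8.09 FPKM in Vv and 9.73 ± 1.34 in Vs (SD, n = 3, adjusted p = 0.22 from limma).

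Of 54 zinc and cadmium genes tested, 18 were above 0 and 36 below (median -0.31), and 26 and 28 after median-ratio scaling (median -0.03). Those of largest difference are in the list through a cadmium term. They were a ribosomal protein gene, VIT_10s0003g00010 (54.2 ± 48.2 FPKM in Vv and 75.1 ± 12.3 in Vs, SD, n = 3, listed at 0 in Vv3), the starch phosphorylase gene *ATPHS2* (24.3 ± 6.77 and 7.82 ± 3.92) and VIT_05s0094g01520 (159.7 ± 57.1 and 75.8 ± 15.8). Of 25 iron genes tested, 7 were above 0 and 18 below (median -0.40), and 12 and 13 after median-ratio scaling (median -0.11). They were led by a mitochondrial iron transporter, VIT_08s0058g00450 (3.89 ± 2.49 and 23.4 ± 9.95, adjusted p = 0.11 from limma), an ethylene signaling factor, VIT_13s0047g00250 (112 ± 92.6 and 15.05 ± 5.36), and the ethylene synthesis gene *ACO1* (8.28 ± 10.7 and 27.1 ± 28.1). The last of these needs iron as a cofactor. None of these genes passed the adjusted threshold, and the highest of these group means, 159.7 FPKM, was far under both group means of *MT3*.

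Of 49 genes of reactive oxygen handling tested, 23 were above 0 and 26 below (median -0.04, against -0.25 for all tested genes). The balance turned with scaling, as the median of all tested genes rose too. After quantile normalization 30 were above and 19 below (median 0.13, all tested genes -0.07). After median-ratio scaling 32 were above and 16 below (48 tested, median 0.29, all tested genes 0.01). A thioredoxin reductase gene, VIT_04s0044g01750, fell from 35.0, 23.1 and 23.6 FPKM in Vv1, Vv2 and Vv3 to a listed 0 in every Vs library (adjusted p = 0.0014 from limma). It was the 1 gene of the list that passed, where 0.557% of all tested genes did. The catalase gene *CAT2*, whose enzyme breaks down hydrogen peroxide in leaf peroxisomes, shared the drop of *MT3* in Vv3. It was at 1732, 1567 and 203 FPKM in Vv1, Vv2 and Vv3 and at 2263, 2213 and 2729 in Vs1, Vs2 and Vs3 (adjusted p = 0.32 from limma). VIT_18s0001g15310, a redox homeostasis gene, was at 12.8 ± 16.2 FPKM in Vv and 30.5 ± 10.01 in Vs (SD, n = 3).

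Metallothioneins are also known as genes of senescence and ripening. Of 16 genes annotated so and tested, 4 were above 0 and 12 below (median -0.29). In limma 0 of them passed the adjusted threshold, where 0.557% of all tested genes did. At an unadjusted p under 0.05 in limma there was 1, against 20.4% of all tested genes. The senescence nuclease gene *BFN1* was at 18.2 ± 8.01 FPKM in Vv and 12.7 ± 10.6 in Vs, *ATATH13* at 126 ± 69.6 and 165 ± 23.3, and VIT_05s0077g01480 at 18.7 ± 0.813 and 13.3 ± 4.08 (SD, n = 3). Both median-ratio scaling and quantile normalization put 8 of the 16 above 0 and 8 below, with the median of all tested genes at 0.01 and -0.07.

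A readout that the choice of *MT3* did not use was the small RNA libraries. miR397, miR398 and miR408 are plant miRNAs known to accumulate when copper is short, and they lower the transcripts of copper proteins such as laccases, copper-zinc superoxide dismutase and plantacyanin. Sequences of the most abundant members and of the 1 that passed the test are shown as the deposited miRNA table gives them, with the seed (bases 2 to 8) in capitals, to show which forms share a seed.
vvi-miR408_L-1R+1: tGCACTGCctcttccctggct
aly-miR408-3p_L-1R+4: tGCACTGCctcttccctggctcca
vvi-miR398a: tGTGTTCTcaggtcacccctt
vvi-miR397a: tCATTGAGtgcagcgttgatg
vvi-MIR398a-p5: gGAGTGGCacctgagaacaccgg

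The 12 copper miRNAs tested among 335 miRNAs are forms of miR397, miR398 and miR408. Some share a seed or come from both arms of a hairpin, so they are not separate measures. Of these 12, 11 had a positive log2 fold change, the direction of *MT3*, with a median of 1.66. Over all tested miRNAs 49.3% were positive and the median was -0.02. The small RNA library Vs3 carried much of this. vvi-miR408_L-1R+1 was at 1931, 662 and 247 CPM (counts scaled to an equal library total) in Vv1, Vv2 and Vv3 and at 1578, 2974 and 8046 in Vs1, Vs2 and Vs3 (adjusted p = 0.14 from edgeR). vvi-miR398a was at 1433, 851 and 415 CPM in Vv1, Vv2 and Vv3 and at 519, 571 and 5208 in Vs1, Vs2 and Vs3 (adjusted p = 0.40 from edgeR). vvi-miR397a was at 460, 69.3 and 117 CPM in Vv1, Vv2 and Vv3 and at 113, 392 and 2165 in Vs1, Vs2 and Vs3 (adjusted p = 0.24 from edgeR). In each of these 3 the groups overlapped, Vs3 was highest by far, and Vv1 was the highest Vv library. vvi-MIR398a-p5, from the other arm of the hairpin, was at 322 ± 78.7 CPM in Vv and 466 ± 381 in Vs (SD, n = 3). Without Vs3, 8 of 12 were above 0, the median was 0.70, and the log2 fold change of vvi-miR398a changed from 1.22 to -0.76.

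The 1 copper miRNA past an adjusted p of 0.05, where 5.97% of all tested miRNAs were, was aly-miR408-3p_L-1R+4, which shares its seed with vvi-miR408_L-1R+1 and ends later. It was at 4.37, 4.91 and 5.26 CPM in Vv1, Vv2 and Vv3 and at 19.3, 13.8 and 24.7 in Vs1, Vs2 and Vs3, or between 7.5 and 32.2 estimated counts (log2 difference 1.98, SE 0.46, adjusted p = 0.036 from edgeR). This call was lost when any 1 library was left out (adjusted p from 0.057 to 0.12). Small RNA and RNA-seq libraries carry the same names Vv1 to Vs3, and whether a name marks the same plant is not stated in the sources used here, so no relation between these miRNAs and *MT3* was computed.

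*MT3* itself was absent from the list of miRNA cleavage sites. Of 8858 lines in the degradome table, on 5310 transcripts, 0 lay on any of the 3 transcripts of *MT3* and VIT_08s0007g00330. The list holds predicted sites only, so reads elsewhere on *MT3* were not seen, and with 1 mixed library no group could be compared.

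The deposited FPKM hold no read totals, but low values of genes with 1 transcript stood in common ratios between libraries. The most frequent ratio, shared by 16 to 26 of 614 to 752 such genes a library, put the relative depths at 0.835 to 1.16 times that of Vv1, and depth did not separate the groups. Between 21471 and 22154 genes were above 0 in each library. In the study's own list of changed genes, which does not hold *MT3*, most sets of values stand under other gene IDs than in the deposited table, so the values of *MT3*, and of every other gene named here, the antenna genes used as leaf markers included, rest on the deposited pairing. Within that table, values with more than 6 decimals went together with several transcripts, and shorter values with a single transcript, in 99.0% of rows, the row of *MT3* among them. This cannot tell rows of several transcripts from each other, so it does not settle the pairing of *MT3*.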

How the data were processed

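The authors aligned paired-end RNA-seq reads to the *V. vinifera* genome with HISAT (build not given in the sources used here), merged StringTie assemblies and deposited FPKM for each gene and library. Small RNA reads were assigned to miRNAs with ACGT101-miR, and the authors deposited them as estimated counts, which need not be whole. Degradome sites were assigned with CleaveLand, and the authors deposited raw read counts at each site of 1 mixed library. Mapping to the grapevine genome gives *Schisandra* RNA no place of its own, and FPKM are relative to all mapped fragments, so abundant entries move those of other genes.

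Groups were taken from the labels. FPKM were tested as log2(FPKM + 1) with limma 3.58.1 (R 4.3.3) for 15447 genes whose mean reached 1 FPKM, without a replicate block, and p-values were adjusted by Benjamini-Hochberg over all of them. Estimated counts were rounded, entries of identical sequence and counts were used once (1030 of 1178), and 335 miRNAs were tested with edgeR 4.0.16 (quasi-likelihood, TMM); small RNA library totals were 1060298 to 1802621 estimated counts. DESeq2 1.42.0 was an alternative. Both procedures were tested on simulated data. The p-values rest on 3 plants a group. Lists were taken by gene symbol, description, GO or KEGG term. *MT3*, the lists and the rules were chosen with earlier results of these data known. Genes were named by rule: the other metallothionein, the 5 entries next above (2 exist) and below *MT3*, the 6 of most similar profile, list members past an adjusted p of 0.05 or among the 3 of largest change at a mean of at least 10 FPKM, the leading marker and ribosomal RNA entries, and the copper miRNAs past the threshold or among the 4 most abundant. The Rubisco small chain gene, the locus neighbours, the leading other reference genes and the genes of largest FPKM difference were named after their values were seen. The normalized miRNA and degradome columns and the p-values of degradome sites, as deposited, were not used. Sequences of the *MT3* protein and promoter were not used here.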

Additional observations from a re-analysis of the deposited data

How the results depend on the processing

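The log2 fold change of *MT3* was 0.71 with quantile normalization and 0.34 with equal antenna sums, which was added after the data were seen, and stayed within the spread between replicates (0.71 on the log2 scale) of its value as deposited in the other settings. Leaving out 1 library gave 1.16 (without Vv3) to 2.11 (without Vv2). The difference in share of 3.04 percentage points was 5.40 when the 10 other most abundant entries were left out of the sum, and 2.40 to 3.64 with 1 library left out. Of all genes, 86 passed the adjusted threshold, 34 with a pseudocount of 10, 57 with a minimum mean of 5 FPKM, and 25 to 91 with 1 library left out (45, 26 and 55 without Vv1, Vv2 and Vv3, 72 without Vs3 and 25 without Vs2). With median-ratio scaling 50 genes were higher and 21 lower in Vs, with quantile normalization 44 and 24, with equal FPKM sums 32 and 52, and with equal antenna sums 15 and 43, against 43 and 43 as deposited. Metal handling genes past the threshold numbered 0 in every setting, also with each 1 library left out (0 to 0). Of all tested genes, 0.557% passed it as deposited. Of 335 miRNAs, 20 passed, 46 by DESeq2, 0 with at least 10 counts in every library (56 at an unadjusted p under 0.05 in edgeR), and 1 to 17 with 1 library left out (12 without Vv2, 1 without Vs2 and 2 without Vs3). With at least 10 counts in every library, 0 of 7 copper miRNAs passed. The 1 that had passed was removed by this filter, as it held 7.5 to 8.5 estimated counts in the Vv libraries. With no filter on low counts 0 passed, and with 1 library left out 0 to 1. That 1 was another miRNA, mdm-miR408a_L-1R+2_1ss21CT without Vs1 (adjusted p = 0.036 from edgeR, named after its value was seen). The causes of the other changes were not tested. Some of the fits also held fewer samples or miRNAs, and the part of this was not tested either. Replicate numbers did not pair the samples (correlations of same-numbered deviations 0.17, -0.05 and 0.04 in RNA-seq and -0.17, 0.01 and -0.11 in miRNA-seq). With the replicate number as a block, 0 genes passed in limma (3069 at an unadjusted p under 0.05), 0 miRNAs and 0 copper miRNAs in edgeR (76 miRNAs at an unadjusted p under 0.05), and *MT3* stayed at 1.70.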
